A study of Mus musculus with 12 samples.

Results

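Arginine can be split by arginases into urea and ornithine, or oxidised by nitric oxide (NO) synthases to NO and citrulline. The transcripts of 10 genes of this network were followed in mouse hearts after acute myocardial infarction (AMI). The genes were taken by their symbols in the deposited matrices, 10 of the 53801 genes listed. They encode both arginases (*Arg1*, *Arg2*), the neuronal, inducible and endothelial NO synthases (*Nos1*, *Nos2*, *Nos3*), the enzymes that rebuild arginine from citrulline (*Ass1*, *Asl*), an arginine transporter (*Slc7a2*), the enzyme that opens polyamine synthesis (*Odc1*) and the enzyme that acetylates polyamines for breakdown or export (*Sat1*). *Arg1* was chosen by its measured values: it was picked as the gene with the largest increase in day 1 AMI in these same hearts. Its values are therefore described here without a test.

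The hearts came from C57BL/6N mice aged 10 to 14 weeks, per the study's methods, and fell into 3 groups of 4, taken after sham surgery, on day 1 of AMI or on day 7 of AMI. AMI was made by tying off the left anterior descending coronary artery, and whole-heart RNA was sequenced, 1 library per heart. The labels do not say how long after surgery the sham hearts were taken. No transgene, deletion or drug is named for these hearts.

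In background, ornithine made by arginase is the precursor of both polyamines and proline, and the latter is abundant in collagen. *Arg1* is best known from hepatocytes and from macrophages in wounds, *Nos2* from activated immune cells and *Nos3* from the endothelium. NO acts on soluble guanylate cyclase, which makes cGMP, a relaxing signal in vascular smooth muscle.

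Counts were scaled to CPM, the reads of a gene per 1e+06 reads of its library, with TMM factors, which keep a few very abundant transcripts from shifting the rest. Differences were tested with edgeR's quasi-likelihood test over 15306 genes that passed a filter on low counts, and p-values were adjusted over those genes by the Benjamini-Hochberg method (FDR). A gene is said to have risen or fallen where its adjusted p was below 0.05, and is called a differentially expressed gene (DEG) where its fold change (FC) was also 2 or greater. Of the 10 genes, 8 passed the filter, *Arg1* among them, and 7 were tested. *Arg2* and *Nos1* were under the filter and are given by their counts. Libraries held from 23204551 to 32166517 counts, and 3 counts, taken as the floor of a library, stood for 0.0895 to 0.156 CPM, a limit that covers counting error only. The heart label was checked against 8 cardiomyocyte genes, none of them at or under the floor, whose summed level was 64809 to 76661 CPM in sham, 37180 to 48900 CPM in day 1 AMI and 31467 to 38377 CPM in day 7 AMI. Sham replicate 2 stood apart by its erythroid transcripts, with 4462 CPM over 6 genes against 241 to 1181 CPM in the other hearts. Sham replicates 1 and 2 also carried more neutrophil transcripts (30.6 and 55.8 CPM over 8 genes) than the other sham hearts (2.91 and 2.39 CPM). In bulk RNA, fewer cells of a type and less RNA per cell cannot be told apart.

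Promoter windows were available for 4 of the 10 genes, and those of *Ass1*, *Odc1* and *Sat1* are shown because each of these genes rose in day 1 AMI. The sequences are from RefSeq on GRCm38.p6 and hold the 250 bases before the annotated start, on the strand of the gene: chr2:31470020-31470269 for *Ass1* (plus strand), chr12:17544623-17544872 for *Odc1* (plus strand) and chrX:155216450-155216699 for *Sat1* (minus strand). Capitals mark CACGTG, the E-box read by MYC and related factors, and GGGCGG or its reverse complement, the core of the GC box read by SP1.
Ass1: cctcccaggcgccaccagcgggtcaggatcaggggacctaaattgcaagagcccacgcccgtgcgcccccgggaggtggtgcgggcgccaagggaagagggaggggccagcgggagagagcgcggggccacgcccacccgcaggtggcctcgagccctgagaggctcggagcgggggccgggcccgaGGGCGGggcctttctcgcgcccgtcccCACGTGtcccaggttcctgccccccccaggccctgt
Odc1: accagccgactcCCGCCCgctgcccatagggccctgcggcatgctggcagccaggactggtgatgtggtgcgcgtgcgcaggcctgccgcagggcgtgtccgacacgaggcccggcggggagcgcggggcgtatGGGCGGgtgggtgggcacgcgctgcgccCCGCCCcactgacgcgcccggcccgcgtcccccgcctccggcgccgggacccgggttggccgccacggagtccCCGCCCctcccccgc
Sat1: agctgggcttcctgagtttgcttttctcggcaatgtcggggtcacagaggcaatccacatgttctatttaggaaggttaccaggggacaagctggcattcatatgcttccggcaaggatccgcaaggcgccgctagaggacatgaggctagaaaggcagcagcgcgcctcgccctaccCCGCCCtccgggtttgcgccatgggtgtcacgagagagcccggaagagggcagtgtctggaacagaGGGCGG
The search covered both strands of a window of 300 bases, 250 before and 50 after the start. *Ass1* held 1 E-box, which contains ACGTG, the hypoxia response core, and 1 GGGCGG. *Odc1* held 4 matches to GGGCGG and *Sat1* held 2. CACGTG is in 7.15% of all 32851 promoter windows of this length, ACGTG in 19.6% and GGGCGG in 35.7%. The windows of these genes and of *Nos1* held none of TGANTCA (AP-1, in 7.81% of all windows), TTC and GAA spaced by 4 bases (STAT, 6.95%), TATAAA (13.6%), TGACGTCA (cAMP response, 1.79%) or CCAAT (37.4%). The *Nos1* window (chr5:117866589-117866888) lies inside the span of the gene in GENCODE M21 and does not cover the gene start there, at 117781032. A match is a run of letters and not a measured site.

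*Arg1* was close to absent from sham hearts and abundant in day 1 AMI. The gene (ENSMUSG00000019987) lies on GRCm38 at chr10:24915221-24927484, on the minus strand. Its counts were 0, 0, 1 and 0 in the sham hearts, 1727, 2976, 608 and 1128 in the day 1 AMI hearts, and 131, 181, 10 and 221 in the day 7 AMI hearts. Every day 1 heart thus stood above every day 7 heart, and every day 7 heart above every sham heart. In normalised units the mean was 52.6 CPM ± 30.8 (SD, n = 4) in day 1 AMI and 4.73 CPM ± 3.29 in day 7 AMI. The ratio of normalised counts, day 1 AMI to sham, was 4491, with a 95% exact counting interval from 806 to 177401 that is wide because the 4 sham libraries held 1 count in all. Day 7 AMI to sham gave 402 (71.9 to 15913), and day 7 AMI to day 1 AMI gave 0.0896 (0.0819 to 0.0978). These intervals cover counting error only. Within day 1 AMI the hearts ran from 19.9 to 88.8 CPM, and within day 7 AMI from 0.369 to 7.52 CPM, the lowest being replicate 3. *Arg1* came first of all genes tested by the fitted log2 FC in day 1 AMI, at 11.64, and the genes just behind it were *Sprr1a* (9.07) and *Spp1* (7.94). The size of a fitted FC against a group at the floor depends on the method.

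Marker lists of leukocytes were read beside *Arg1*. Summed over 8 monocyte and macrophage genes, the level was 198 to 279 CPM in sham, 424 to 655 CPM in day 1 AMI and 624 to 958 CPM in day 7 AMI. This sum ran highest in day 7 AMI, when *Arg1* had come down, and the day 1 and day 7 ranges overlapped. From day 1 to day 7 AMI, 3 of the 8 genes rose and 1, *Itgam*, fell (log2 FC −1.07, adjusted p = 0.00925). Of all genes tested, 24.2% rose and 22.8% fell between these times. A list of 5 genes of alternatively activated macrophages ran from 49.0 to 76.1 CPM in sham, 82.5 to 159 CPM in day 1 AMI and 63.2 to 77.3 CPM in day 7 AMI. Its genes did not move together in day 1 AMI: *Chil3*, a chitinase-like protein, went from 1.42 CPM in sham to 37.7 CPM (log2 FC 4.69, adjusted p = 6.55e-05) and *Mrc1* from 32.6 to 53.5 CPM (0.71, adjusted p = 0.00244), *Retnla* fell from 2.20 to 1.000 CPM (−1.13, adjusted p = 0.00219), and *Cd163* and *Clec10a* did not pass (adjusted p = 0.872 and 0.467). The neutrophil list ran from 2.39 to 55.8 CPM, from 39.7 to 144 CPM and from 7.61 to 38.5 CPM in the same order of groups. Of its 7 genes tested, 3 rose in day 1 AMI (22.0% of all genes) and none fell (19.9%). The 3 were *Csf3r*, *Cxcr2* and *Il1r2*, while *S100a8*, *S100a9*, *Mmp8* and *Retnlg* did not pass (adjusted p = 0.291 to 0.681). None of these lists had a gene at or under the floor in every library. In day 1 AMI, replicate 2 was the highest heart and replicate 3 the lowest for *Arg1* and for each of these 3 lists. Replicate 2 was also the highest for 31.1% of all genes tested, and replicate 3 the lowest for 19.2%. In day 7 AMI, replicate 4 was highest for *Arg1*, for the alternatively activated macrophage and neutrophil lists, and for 19.9% of all genes tested. The monocyte and macrophage list was highest in replicate 1 (958 CPM against 896 CPM in replicate 4). The part of these cells in the *Arg1* level was not tested. Of 8 hepatocyte genes, 5 were at or under 3 counts in every library (*Alb*, *Apoa1*, *Apob*, *Serpina1a* and *Otc*), and the summed list stayed between 1.26 and 3.37 CPM in all 12 hearts.

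Over the 12 hearts, the genes whose log2 CPM followed *Arg1* most closely were *Uxs1* (Pearson r = 0.980), *Pdpn* (0.967), *Cxcr6* (0.963), *Tuba1b* (0.960) and *Rtn4* (0.960), ranked among 13925 genes. These r describe 12 points in 3 groups and mostly trace the group means. *Pdpn*, which encodes podoplanin, averaged 4.28 CPM in sham, 30.4 CPM in day 1 AMI and 13.4 CPM in day 7 AMI, and *Cxcr6*, a chemokine receptor, averaged 0.311, 8.62 and 2.90 CPM.

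*Arg2*, the mitochondrial arginase (ENSMUSG00000021125, chr12:79130777-79156301, plus strand), was barely measured. Its counts were 2, 6, 1 and 0 in sham, 14, 31, 6 and 8 in day 1 AMI, and 3, 0, 2 and 11 in day 7 AMI. Day 1 AMI hearts averaged 0.477 CPM ± 0.333 against 0.0998 CPM ± 0.107 in sham (exact two-sided permutation test, p = 0.0571, adjusted p = 0.114 over 6 tests), and the groups overlapped. With 4 hearts against 4 the smallest p is 0.0286. The other comparisons of *Arg2* had p = 0.714 (day 7 AMI against sham) and p = 0.114 (day 7 AMI against day 1 AMI) by the same exact test. Antisense to *Arg2*, the gene *Vti1b* covers 19.96% of its exon bases and had 46.7 to 78.1 CPM, and since the counted strand is not given in the sources used here, reads of this stretch cannot be assigned. In TPM, which corrects for transcript length, *Arg1* was 92.7 to 134 times *Arg2* in the 4 day 1 AMI hearts. Nearly all arginase transcript in day 1 AMI was therefore *Arg1*.

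**Figure D1:**
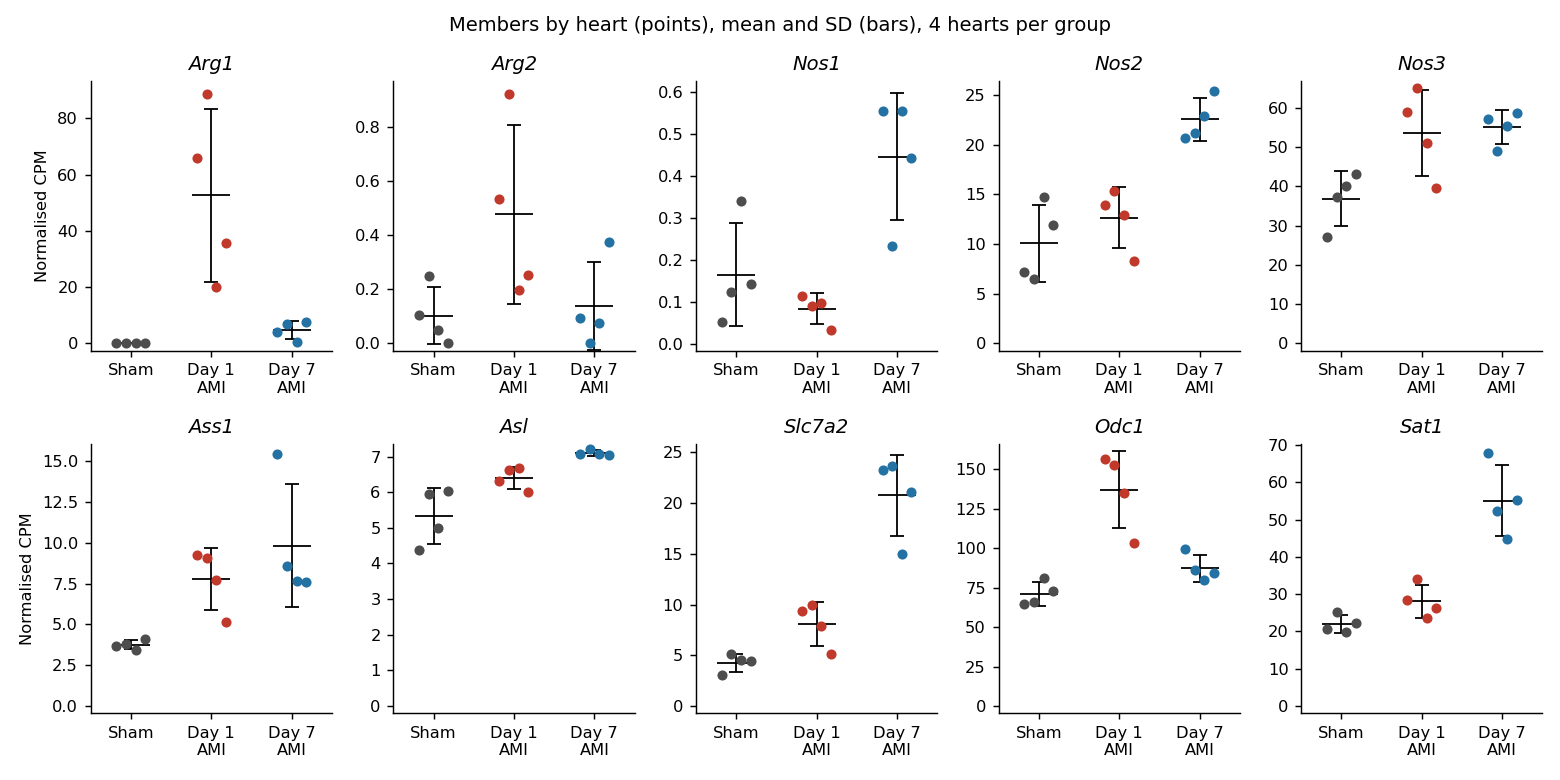
Normalised CPM of the 10 genes in each heart (vertical axes, linear, each with its own range), with the groups side by side from sham to day 7 AMI. Points are hearts, and bars give the mean and SD of 4 hearts. *Arg1* peaked in day 1 AMI (19.9 to 88.8 CPM), *Odc1* was highest there as well, and *Slc7a2*, *Sat1* and *Nos2* were highest in day 7 AMI.

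Of the NO synthases, *Nos3* rose at both times and *Nos2* in day 7 AMI, while *Nos1* was barely measured. The inducible synthase *Nos2* (ENSMUSG00000020826, chr11:78920787-78960254, plus strand) had 7.15, 6.49, 14.7 and 11.9 CPM in the sham hearts, 13.9, 15.4, 13.0 and 8.26 CPM in day 1 AMI, and 20.7, 21.1, 22.9 and 25.4 CPM in day 7 AMI. Sham and day 1 AMI hearts overlapped, whereas each day 7 heart was above all of them. Its log2 FC in day 1 AMI was 0.33 (standard error, SE, 0.236, adjusted p = 0.281), which did not pass. On the log2 scale, *Nos2* of day 7 AMI was higher by 1.17 than in sham (SE 0.235, adjusted p = 0.000663) and by 0.84 than in day 1 AMI (SE 0.229, adjusted p = 0.00833). Without sham replicate 2, the lowest sham heart, the first of these was 0.998, just under a FC of 2.

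The endothelial synthase *Nos3* (ENSMUSG00000028978, chr5:24364810-24384474, plus strand) was higher at both times. It had 26.97, 37.3, 40.2 and 43.1 CPM in sham, 59.0, 65.0, 51.0 and 39.5 CPM in day 1 AMI, and 57.3, 49.0, 55.5 and 58.7 CPM in day 7 AMI. Only day 1 AMI replicate 4 fell within the sham range. *Nos3* rose by 0.54 on the log2 scale in day 1 AMI (SE 0.154, adjusted p = 0.0123) and by 0.58 in day 7 AMI (SE 0.154, adjusted p = 0.00496). Between day 1 and day 7 AMI its log2 FC was 0.04 (SE 0.152, adjusted p = 0.849). The antisense gene *Gm15587* covers 25.2% of the exon bases of *Nos3* and *Atg9b* covers 7.12%. Both were low, *Gm15587* at no more than 0.996 CPM and *Atg9b* at no more than 2.23 CPM.

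Since *Nos3* is an endothelial gene, it was set beside 8 other endothelial genes (*Pecam1*, *Cdh5*, *Kdr*, *Tie1*, *Tek*, *Emcn*, *Cldn5* and *Egfl7*). Their summed level ran from 901 to 1046 CPM in sham, 792 to 837 CPM in day 1 AMI and 1225 to 1370 CPM in day 7 AMI, and none of the 8 was at or under the floor. The log2 CPM of *Nos3* minus the mean log2 CPM of the list was −1.35 ± 0.203 for the sham hearts (SD, n = 4), −0.65 ± 0.277 for day 1 AMI and −1.15 ± 0.0628 for day 7 AMI. Relative to these genes *Nos3* was thus 0.70 higher in day 1 AMI than in sham on the log2 scale, and the hearts of these groups did not overlap (exact two-sided permutation test, p = 0.0286, adjusted p = 0.0429 over 3 tests). From day 1 to day 7 AMI the same difference fell by 0.50 (exact permutation p = 0.0286, adjusted p = 0.0429). Day 7 AMI was 0.20 above sham (exact permutation p = 0.114). In day 1 AMI against sham, 3 of the 8 endothelial genes fell (*Kdr*, *Tek* and *Emcn*) and none rose. In day 7 AMI against sham, 6 rose and none fell. Over all genes tested, 19.9% fell and 22.0% rose in day 1 AMI, and 30.9% rose and 28.4% fell in day 7 AMI. The mean log2 CPM of the list in sham replicate 1 (6.36) lay within the day 1 AMI range of 6.33 to 6.42, so those groups overlapped. With 1 heart left out, the *Nos3* difference of day 1 AMI missed the threshold in 8 of 12 cases, and that between the times in 7 of 12, at adjusted p-values of up to 0.0857.

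The neuronal synthase *Nos1* (ENSMUSG00000029361, chr5:117781032-117958840, plus strand) was at the edge of detection. Its counts were 1, 3, 7 and 3 in sham, 3, 3, 3 and 1 in day 1 AMI, and 18, 6, 15 and 13 in day 7 AMI. Every day 7 heart exceeded every day 1 heart, by 0.362 CPM on average (exact two-sided permutation test, p = 0.0286, adjusted p = 0.114 over 6 tests), whereas day 7 AMI overlapped with sham (exact p = 0.0571). Without the filter on low counts, edgeR put *Nos1* of day 7 AMI above day 1 AMI by 2.36 on the log2 scale (adjusted p = 0.00397). Of 6 neuronal genes, *Snap25*, *Syt1* and *Elavl4* were at or under 3 counts in every library, and *Tubb3*, a neuronal tubulin, was the 1 that passed the filter. *Tubb3* averaged 1.14 CPM in sham, 8.87 CPM in day 1 AMI and 8.28 CPM in day 7 AMI. The list did not move together. *Tubb3* was highest in day 1 AMI, *Elavl4* (0.0843, 0.0252 and 0.0162 CPM) and *Snap25* were highest in sham, and *Syt1* had 0 counts. *Prph* and *Th*, both under the filter, were highest in day 7 AMI, *Th* with at most 4 counts in a library. In the same order of groups, *Prph* averaged 0.123, 0.152 and 0.468 CPM, and *Th* 0.0120, 0.00818 and 0.0819 CPM. The part of neuronal cells in the *Nos1* level was not tested.

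Per transcript length, *Nos3* was the main synthase in every heart. Together the 3 synthases averaged 13.7 TPM ± 3.32 for the sham hearts (SD, n = 4 per group). Their sum was 23.7 TPM ± 4.69 on day 1 of AMI and 33.8 TPM ± 3.07 on day 7. TPM carry no TMM factors, and on log2(TPM + 0.1) the median log2 FC of all genes against sham was 0.31 on day 1 and 0.57 on day 7. *Nos3* itself went from 10.4 TPM for sham to 22.7 TPM on day 7, but from 36.9 to 55.1 CPM. The increase of the summed TPM therefore includes this general shift. *Nos3* made up 76.5% ± 5.45 of this sum for sham, 78.9% ± 1.63 for day 1 AMI and 67.3% ± 1.75 for day 7 AMI. This share fell by 9.24 percentage points between sham and day 7 AMI and by 11.6 between day 1 and day 7 AMI, with no overlap of hearts in either (exact two-sided permutation tests, p = 0.0286, adjusted p = 0.0429 over 3 tests). Both calls were lost when the share was computed from CPM (adjusted p = 0.0857) and in 4 of 12 cases with 1 heart left out. *Nos2* took up the difference, with a share of 32.5% ± 1.78 in day 7 AMI against 23.3% ± 5.36 in sham. *Arg1* stood at 0.961 to 3.47 times the summed synthases in day 1 AMI, at 0.0141 to 0.304 times in day 7 AMI, and at no more than 0.00302 times in sham.

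**Figure D2:**
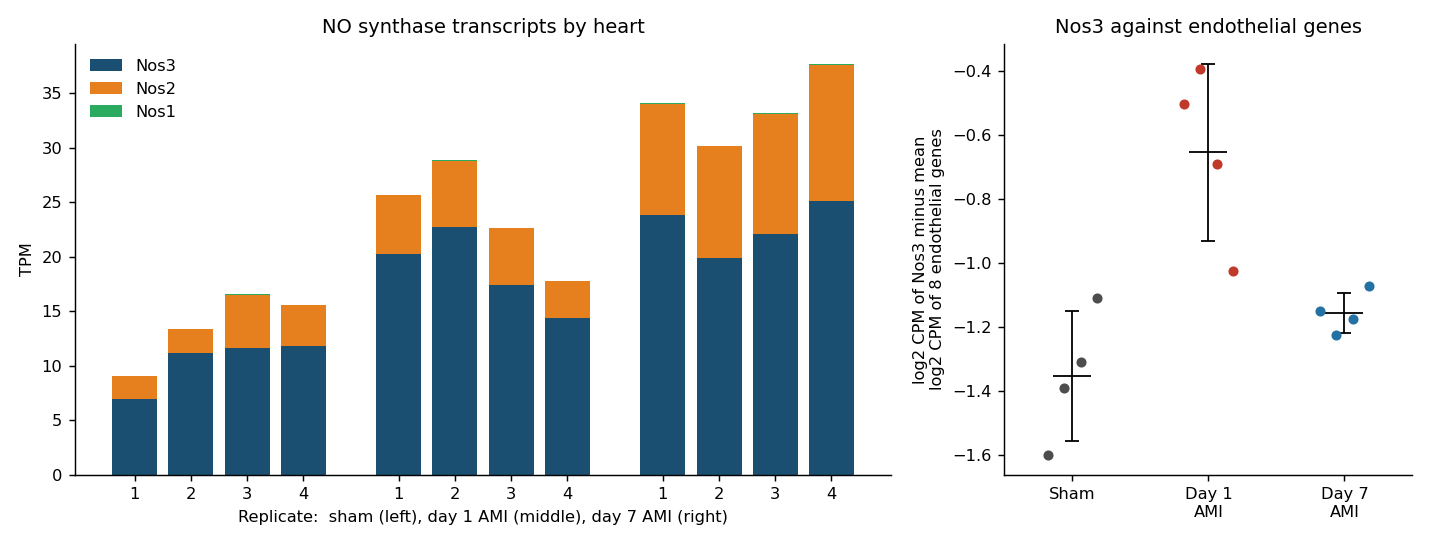
Left, TPM of *Nos3*, *Nos2* and *Nos1* stacked for each of the 12 hearts; right, log2 CPM of *Nos3* minus the mean log2 CPM of 8 endothelial genes, with points for hearts and bars for the mean and SD of 4. The *Nos3* share was 67.3% on average in day 7 AMI against 76.5% in sham, and the right panel is highest in day 1 AMI (mean −0.65 against −1.35 in sham).

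Both enzymes of the citrulline to arginine cycle were higher in day 7 AMI. *Ass1* (ENSMUSG00000076441, chr2:31470207-31520672, plus strand), which joins citrulline to aspartate, had 3.65, 3.82, 3.44 and 4.11 CPM in sham, 9.25, 9.07, 7.72 and 5.14 CPM in day 1 AMI, and 15.5, 8.58, 7.64 and 7.62 CPM in day 7 AMI. All hearts after AMI were above all sham hearts. *Ass1* rose by 1.05 on the log2 scale in day 1 AMI (SE 0.244, adjusted p = 0.00365) and by 1.39 in day 7 AMI (SE 0.244, adjusted p = 0.000212), and was a DEG in both. In day 1 AMI its FC dropped under 2 without replicate 1 (0.96, adjusted p = 0.013) or replicate 2 (0.97, adjusted p = 0.0127). Between day 7 and day 1 AMI the log2 FC was 0.34 (adjusted p = 0.243), and 0.03 without day 7 AMI replicate 1, the heart at 15.5 CPM. *Ass1* shares 32.6% of its stretches of 75 bases with the pseudogene *Gm5424*, which had at most 2 counts in a library. *Asl* (ENSMUSG00000025533, chr5:130011258-130029247, minus strand), which releases arginine, had 4.38, 5.96, 4.996 and 6.02 CPM in sham, 6.31, 6.62, 6.67 and 6.02 CPM in day 1 AMI, and 7.09, 7.22, 7.08 and 7.04 CPM in day 7 AMI. Its day 7 hearts lay within a narrow range above all others. *Asl* rose by 0.41 in day 7 AMI against sham (SE 0.122, adjusted p = 0.00992), and its day 1 log2 FC of 0.26 did not pass (adjusted p = 0.102).

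The arginine transporter *Slc7a2* (ENSMUSG00000031596, chr8:40862396-40922308, plus strand) had the largest day 7 FC of the 7 genes tested. It had 3.03, 5.17, 4.51 and 4.40 CPM in sham, 9.33, 9.94, 7.88 and 5.11 CPM in day 1 AMI, and 23.2, 23.6, 14.98 and 21.1 CPM in day 7 AMI. Day 1 AMI overlapped with sham only through replicate 4, and day 7 AMI was apart from both groups. The log2 FC was 0.91 in day 1 AMI (SE 0.220, adjusted p = 0.00477), 2.27 in day 7 AMI (SE 0.220, adjusted p = 1.18e-06) and 1.36 from day 1 to day 7 AMI (SE 0.206, adjusted p = 0.000122). The transporter thus rose over both steps, whereas *Arg1*, which was not tested, had lower values in day 7 than in day 1 AMI. A list of 6 fibroblast genes moved in the same order, from 811 to 984 CPM in sham to 1014 to 1303 CPM in day 1 AMI and 4034 to 10089 CPM in day 7 AMI, with none of the 6 at or under the floor. The largest terms of the day 7 sum were *Col1a1* (135, 360 and 2892 CPM on average from sham to day 7 AMI) and *Col1a2* (139, 338 and 2524 CPM). In day 1 AMI, 4 of the 6 genes rose (22.0% of all genes tested) and 1 fell (19.9%). The gene that fell was *Dcn*, from 522 to 318 CPM, and *Tcf21* did not pass (adjusted p = 0.919). All 6 rose in day 7 AMI against sham (30.9%). The part of this list in the levels of *Slc7a2*, *Sat1* and the other genes highest in day 7 AMI was not tested.

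*Odc1* and *Sat1*, at opposite ends of polyamine turnover, moved in opposite directions between day 1 and day 7 AMI. *Odc1* (ENSMUSG00000011179, chr12:17544794-17551505, plus strand), ornithine decarboxylase, had 65.0, 65.7, 81.3 and 72.7 CPM in sham, 157, 153, 135 and 103 CPM in day 1 AMI, and 99.7, 86.0, 79.9 and 84.2 CPM in day 7 AMI. The day 1 hearts were above all sham and all day 7 hearts. *Odc1* rose by 0.94 on the log2 scale in day 1 AMI (SE 0.125, adjusted p = 8.92e-05), and its log2 FC from day 1 to day 7 AMI was −0.65 (SE 0.124, adjusted p = 0.000755). In day 7 AMI it was 0.30 above sham and did not pass (adjusted p = 0.0531, and 7.73e-05 to 0.0801 across settings with all 12 hearts). *Odc1* shares 16.6% of its stretches of 75 bases with *Gm17709*, *Gm7993* and *Gm9115*, each under 1 CPM in every library.

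*Sat1* (ENSMUSG00000025283, chrX:155213132-155216449, minus strand), spermidine/spermine acetyltransferase, had 20.5, 25.1, 19.9 and 22.3 CPM in sham, 28.5, 34.0, 23.6 and 26.2 CPM in day 1 AMI, and 67.9, 52.4, 44.9 and 55.1 CPM in day 7 AMI. Day 7 hearts were apart from all others. *Sat1* rose by 1.33 in day 7 AMI against sham (SE 0.136, adjusted p = 1.98e-06) and by 0.97 against day 1 AMI (SE 0.134, adjusted p = 5.67e-05). Its day 1 increase of 0.35 was at the threshold (SE 0.136, adjusted p = 0.0494) and was lost without any one of sham replicates 1, 3 and 4, day 1 AMI replicates 1, 2 and 4, or day 7 AMI replicates 2 and 4, with adjusted p-values of 0.0514 to 0.168. In TPM the ratio of *Odc1* to *Sat1* was 1.32 to 1.99 in sham, 1.92 to 2.81 in day 1 AMI and 0.739 to 0.892 in day 7 AMI. *Odc1* was the more abundant transcript in every sham and day 1 AMI heart, and *Sat1* in every day 7 AMI heart.

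**Figure D3:**
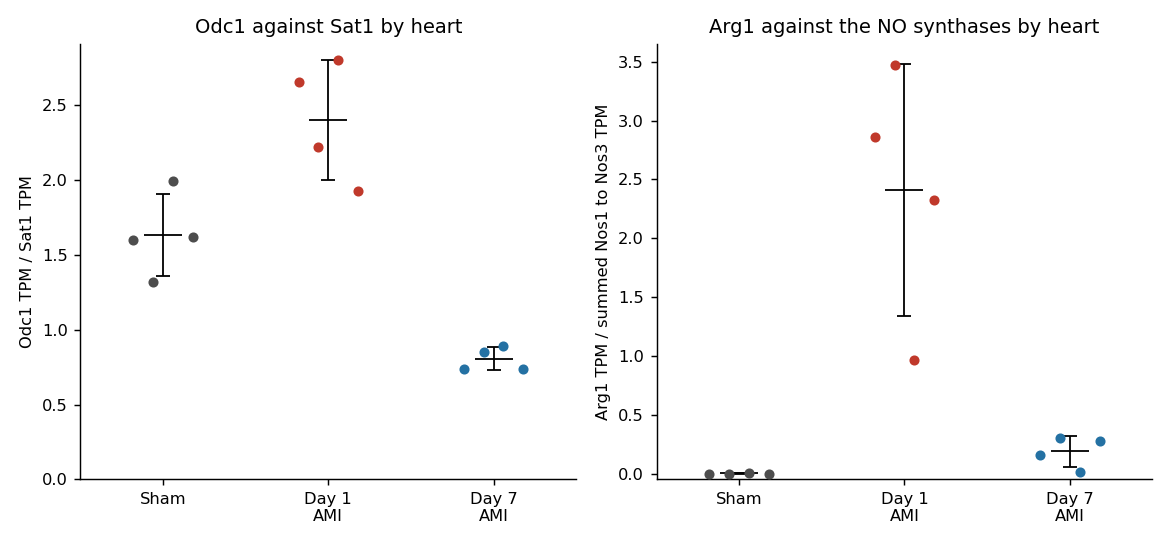
Left, *Odc1* TPM divided by *Sat1* TPM; right, *Arg1* TPM divided by the summed TPM of the 3 NO synthases; both on linear axes, with points for hearts and bars for the mean and SD of 4. The left ratio was under 1 in all 4 day 7 AMI hearts (0.739 to 0.892), and the right ratio was 0.961 to 3.47 in day 1 AMI.

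The members were chosen with earlier results of these data known, so the counts below describe these genes and do not test them as a set. Counted together, 5 of the 7 genes tested rose in day 1 AMI against sham (*Nos3*, *Ass1*, *Slc7a2*, *Odc1* and *Sat1*), where 22.0% of all genes tested rose, and none fell, against 19.9%. *Ass1* was the 1 DEG higher, against 7.79% of all genes, and none was a DEG lower, against 2.98%. In day 7 AMI against sham 6 of 7 rose, against 30.9% of all genes, none fell, against 28.4%, 4 were DEGs higher (*Nos2*, *Ass1*, *Slc7a2* and *Sat1*), against 15.3%, and none was a DEG lower, against 5.88%. From day 1 to day 7 AMI 3 of 7 rose (*Nos2*, *Slc7a2* and *Sat1*), against 24.2%, and *Odc1* fell, against 22.8% of all genes. *Slc7a2* was the 1 DEG higher, against 8.55%, and none was a DEG lower, against 2.69%. The median log2 FC of the 7 genes was 0.54, 1.17 and 0.34 in these comparisons, beside −0.01, 0.03 and 0.02 over all genes. Hearts did not overlap for 2, 6 and 4 genes that were higher (19.6%, 28.3% and 23.5% of all genes). They did not overlap for 0, 0 and 1 genes that were lower (17.1%, 24.7% and 20.9%), the 1 being *Odc1*. Replicate 4 was the lowest day 1 AMI heart for 6 of the 7 genes, all but *Sat1*, and for 31.9% of all genes tested. It also had the highest cardiomyocyte list of its group, 48900 CPM against 37180 to 45953 CPM. Without it, 3 genes were DEGs in day 1 AMI, *Ass1*, *Slc7a2* (1.07) and *Odc1* (1.06). Without sham replicate 2 there were 2 such genes, *Ass1* and *Slc7a2*, and without sham replicate 3 again 2, *Ass1* and *Odc1*.

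**Figure D4:**
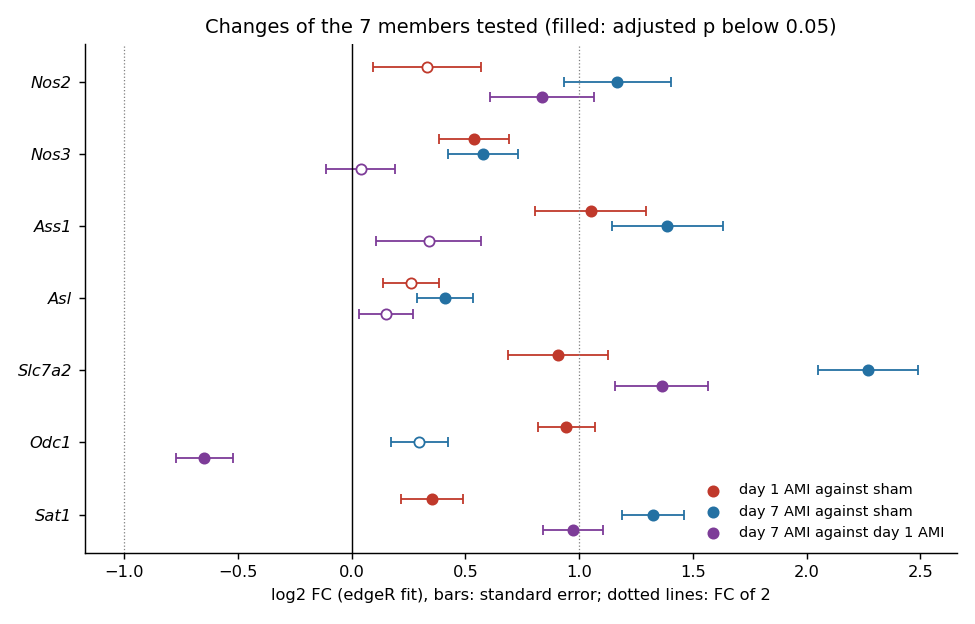
Log2 FC of the 7 genes tested (horizontal axis) in the 3 comparisons, with bars for the standard error from the edgeR fit of 4 hearts per group; filled points had an adjusted p below 0.05 and dotted lines mark a FC of 2. *Slc7a2* reached 2.27 in day 7 AMI against sham, and *Odc1* is the gene left of 0, at −0.65 from day 1 to day 7 AMI.

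Around these genes, lists of 65 further genes of arginine, NO and polyamine metabolism were read, of which 56 passed the filter. The lists, too, were chosen with earlier results of these data known, and their counts are descriptive. Set against sham, day 1 AMI had 6 of them as DEGs higher and 3 as DEGs lower. In day 7 AMI 11 were higher and 5 lower than in sham, and against day 1 AMI 8 were higher and 2 lower. As shares of the 56 these were 10.7% and 5.36% in day 1 AMI (7.79% and 2.98% of all genes tested), 19.6% and 8.93% in day 7 AMI (15.3% and 5.88%), and 14.3% and 3.57% between the times (8.55% and 2.69%). At an FDR below 0.05 alone the counts were 20 and 11, 21 and 20, and 17 and 22, or 35.7% and 19.6%, 37.5% and 35.7%, and 30.4% and 39.3%, beside 22.0% and 19.9%, 30.9% and 28.4%, and 24.2% and 22.8% of all genes. The median log2 FC of the 56 was −0.01, 0.00345 and −0.10.

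Ornithine and glutamate can both be turned into proline, and here the genes of synthesis and of breakdown parted. *Pycr1*, a mitochondrial pyrroline-5-carboxylate reductase, went from 1.74 CPM in sham to 5.11 CPM in day 1 AMI and 7.71 CPM in day 7 AMI (log2 FCs of 1.54 and 2.14 against sham, adjusted p = 0.000235 and 3.83e-06). *Aldh18a1*, which makes pyrroline-5-carboxylate from glutamate, rose by 1.25 and 1.37 (adjusted p = 5.59e-05 and 4.20e-06). *Prodh*, proline dehydrogenase, fell by 1.21 and 1.65 (adjusted p = 1.16e-05 and 1.04e-07), from 31.4 CPM in sham to 10.02 CPM in day 7 AMI. *Aldh4a1*, the next enzyme of proline breakdown, fell by 0.80 and 1.53 (adjusted p = 0.000137 and 1.64e-07). Of this list of 6 genes, 2 were DEGs higher at each time (7.79% and 15.3% of all genes tested). In day 1 AMI 1 of the list was a DEG lower (2.98%), and in day 7 AMI 2 were (5.88%). *Oat*, which links ornithine to this route, fell by 0.40 in day 1 AMI and by 0.85 in day 7 AMI (adjusted p = 0.000503 and 2.90e-07).

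Among other carriers of arginine and amino acids, *Slc7a7*, which exports arginine in exchange for neutral amino acids, rose by 1.04 in day 1 AMI and 1.12 in day 7 AMI (adjusted p = 0.0066 and 0.0023). *Slc7a8*, a carrier of neutral amino acids, rose by 1.37 and 0.99 (adjusted p = 0.000346 and 0.00166). *Slc7a1*, the constitutive arginine transporter, went the other way from *Slc7a2*, from 73.3 CPM in sham to 39.5 CPM in day 7 AMI (log2 FC −0.89, adjusted p = 0.000227). *Gatm*, which uses arginine to start creatine synthesis, rose by 1.56 in day 7 AMI (adjusted p = 3.25e-06).

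On the NO side, the largest change of the 56 genes was that of *Ddah1*, which breaks down asymmetric dimethylarginine, an inhibitor of NO synthases. *Ddah1* had 7.06 CPM in sham, 10.1 CPM in day 1 AMI and 55.4 CPM in day 7 AMI, and rose 7.87-fold in day 7 AMI against sham (log2 FC 2.98, SE 0.220, adjusted p = 1.24e-07). Its day 1 log2 FC of 0.52 did not pass (adjusted p = 0.0709). *Ddah2* rose by 1.22 in day 7 AMI (adjusted p = 3.64e-06). The guanylate cyclase subunits *Gucy1a1* and *Gucy1b1* rose by 1.44 and 0.99 above sham in day 7 AMI (adjusted p = 3.32e-07 and 1.26e-06), with log2 FCs of −0.13 and −0.12 in day 1 AMI that did not pass (adjusted p = 0.405 and 0.345). *Pde5a*, which degrades cGMP, rose by 1.10 in day 7 AMI (adjusted p = 2.33e-05). *Cav3*, the muscle caveolin, rose by 0.68 in day 1 AMI and was 0.69 below sham in day 7 AMI, a fall of 1.37 between the times (adjusted p = 0.000119, 3.00e-05 and 2.03e-07).

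Tetrahydrobiopterin is the cofactor of all NO synthases. Of its 7 genes tested, 4 fell in day 1 AMI (19.9% of all genes) and 4 in day 7 AMI (28.4%) against sham. *Pts* fell by 0.89 and 0.62, *Spr* by 0.35 and 0.85 and *Qdpr* by 0.34 and 0.68 (adjusted p of 6.14e-06 to 0.0375). *Gchfr*, the feedback regulator of the first enzyme, fell by 1.11 and 2.31 (adjusted p = 0.0147 and 7.12e-05), from 2.89 CPM in sham to 0.573 CPM in day 7 AMI. *Gch1*, that first enzyme, had log2 FCs of 0.31 and −0.06 that did not pass (adjusted p = 0.204 and 0.81). *Pcbd1* was 1.14 higher in day 7 than in day 1 AMI (adjusted p = 0.0112), at under 1 CPM in each group.

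In polyamine synthesis after *Odc1*, *Srm*, spermidine synthase, rose with it in day 1 AMI, from 12.1 to 32.9 CPM (log2 FC 1.44, adjusted p = 3.21e-05), and came down to 18.9 CPM in day 7 AMI, still above sham (log2 FC 0.65, adjusted p = 0.00316). *Sms*, spermine synthase, fell by 0.39 and 0.60 (adjusted p = 0.00463 and 8.80e-05). *Amd1*, which supplies the aminopropyl groups, fell by 1.13 in day 7 AMI (adjusted p = 0.000103). *Azin1*, the antizyme inhibitor that protects ornithine decarboxylase from degradation, rose by 0.96 in day 1 AMI (adjusted p = 0.000144), from 76.1 to 148 CPM, and declined again, with a log2 FC of −0.62 from day 1 to day 7 AMI (adjusted p = 0.00213). The antizymes *Oaz1* and *Oaz2* had log2 FCs of −0.15 and −0.16 in day 1 AMI that did not pass (adjusted p = 0.202 and 0.181), and fell by 0.62 and 0.42 in day 7 AMI (adjusted p = 5.69e-05 and 0.00156). *Azin2*, a second antizyme inhibitor, rose by 1.94 in day 7 AMI (adjusted p = 1.69e-05), and the polyamine carrier *Slc22a3* fell by 1.41 and 1.29 (adjusted p = 0.00332 and 0.00309). *Eif5a*, the translation factor that carries hypusine made from spermidine, rose by 0.48 in day 1 AMI and fell below sham in day 7 AMI with a log2 FC of −0.45 (adjusted p = 0.000571 and 0.000405), and its paralog *Eif5a2* rose by 0.66 and 1.59 (adjusted p = 0.0214 and 1.72e-05).

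**Figure D5:**
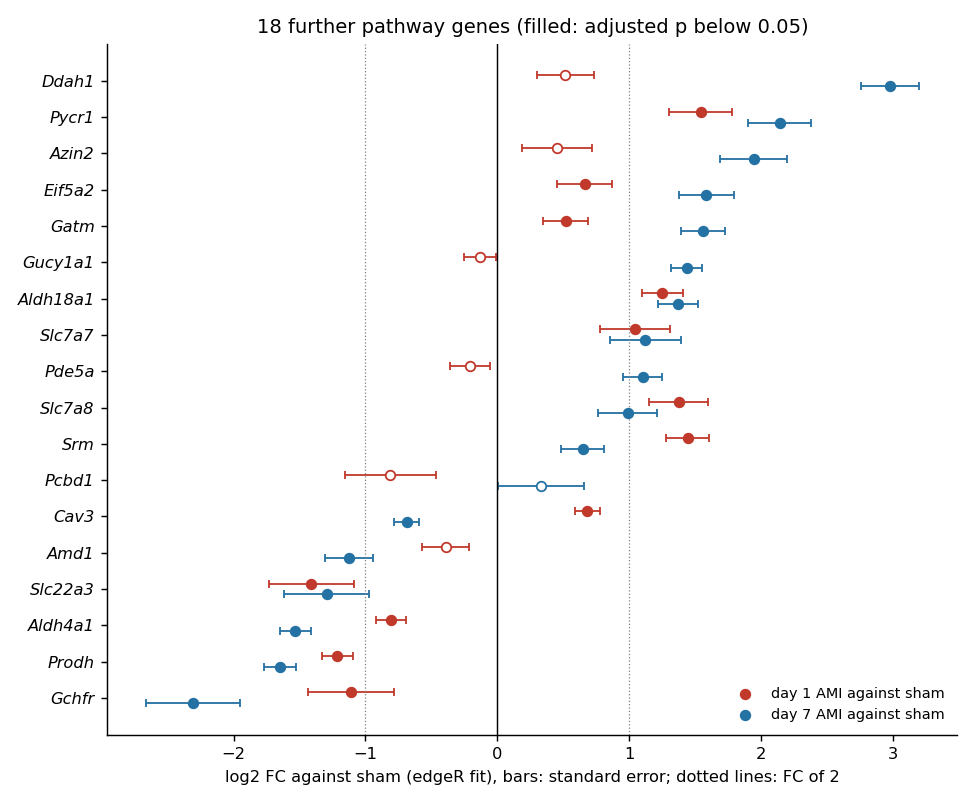
Log2 FC against sham (horizontal axis) of 18 further genes of the pathway in day 1 AMI and day 7 AMI, with bars for the standard error from the edgeR fit; filled points had an adjusted p below 0.05 and dotted lines mark a FC of 2. *Ddah1* lies furthest to the right at 2.98 in day 7 AMI and *Gchfr* furthest to the left at −2.31.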

How the data were processed

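RNA from 12 whole mouse hearts was analysed, 4 per group, grouped by their labels. Per the study's methods and the submitters' processing notes, 150-base paired-end reads were trimmed, aligned with STAR 2.4.0j to GRCm38 (mm10) and quantified with RSEM. The authors deposited raw counts per gene, without normalization, and TPM, normalised by transcript length and library. The tool behind the counts and the counted strand are not given in the sources used here. The members and gene lists were chosen with earlier results of these data known.

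Counts were fitted with edgeR 4.0.16 in R 4.3.3 (TMM, filterByExpr by group, quasi-likelihood test, 1 fit of 3 groups), and standard errors follow from the F statistic. Log2 CPM used a prior count of 2. Single values were compared with exact permutation tests. Figures used matplotlib 3.10.9. Alternatives were RLE factors, no filter, library sizes alone, a replicate block, the groups compared only, DESeq2 1.42.0, limma 3.58.1 on log2(TPM + 1) and log2(TPM + 0.1), no FC minimum, and each heart left out. The code was tested on simulated data. Coordinates, overlaps and shared stretches are from GENCODE M21. The labels do not tie the replicates to separate cages or batches, so a batch shared by a group could not be told apart from its effect. The p-values set each group difference against the spread between these hearts. No pair of libraries of a group repeated one another (chi-square per degree of freedom of at least 9.19).

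Named are the 10 members, the pathway DEGs with the 5 largest changes per direction and comparison, and the genes most alike to each member (Pearson r, at least 1 CPM in the highest group). The genes *Oat*, *Slc7a1*, *Ddah2*, *Gucy1b1*, *Pts*, *Spr*, *Qdpr*, *Gch1*, *Sms*, *Azin1*, *Oaz1*, *Oaz2* and *Eif5a* were named after their values were seen.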

Additional observations from a re-analysis of the deposited data

Results flagged for a closer look

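In a search for single hearts far from the rest of their group (Dixon's test), which by chance marks about 1 in 20 groups and here covered 28, *Ass1* in day 7 AMI stood out, with replicate 1 at 15.5 CPM against 7.62 to 8.58 CPM in the other hearts.

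The effects of AMI differed between day 1 and day 7, by the direct comparison of these groups in the edgeR fit, for 4 genes. The difference in log2 FC was 0.84 for *Nos2* (adjusted p = 0.00833), 1.36 for *Slc7a2* (adjusted p = 0.000122), −0.65 for *Odc1* (adjusted p = 0.000755) and 0.97 for *Sat1* (adjusted p = 5.67e-05). In each, all 4 hearts of one time lay beyond all 4 of the other.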

How the results depend on the processing

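No direction of the 7 genes tested turned under the alternatives that kept every heart. *Nos3* in day 7 against day 1 AMI, at 0.04, ran from −0.085 without day 1 AMI replicate 4 to 0.142 without day 1 AMI replicate 2 and did not pass. On library sizes alone the median of all genes moved to 0.26, 0.43 and 0.15 in day 1 AMI against sham, day 7 AMI against sham and day 7 against day 1 AMI, with limma to 0.23, 0.44 and 0.18 (TPM + 1) and to 0.31, 0.57 and 0.25 (TPM + 0.1). FCs under those settings are best read against these shifts.

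DEGs higher in day 1 AMI, 1 of the members in the report, were 3 on library sizes alone, 2 with DESeq2 on the groups compared, 2 and 3 with limma, and 5 with no FC minimum. From day 1 to day 7 AMI the 1 member became 2 without the filter, on library sizes alone and with either DESeq2 fit, and 3 with either limma fit or no FC minimum, and the member lower went from 0 to 1 with no FC minimum. With 1 heart left out, these counts ran from 0 to 4 in day 1 AMI, from 3 to 5 in day 7 AMI against sham and from 1 to 3 between the times. Part of this came from *Arg2* and *Nos1*, which passed the filter in 9 of 12 such fits. *Nos1* was a DEG from day 1 to day 7 AMI in all 9, and *Arg2* a DEG in day 1 AMI in 4. Without day 1 AMI replicate 2 or day 7 AMI replicate 3, *Sat1* was a DEG between the times (1.07 and 1.06).

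Of the 56 pathway genes, DEGs higher and lower became 20 and 11, 21 and 20, and 17 and 22 with no FC minimum. On library sizes alone 1 was lower in day 1 AMI, and 18 were higher and 3 lower in day 7 AMI. With limma 0 and 1 were lower in day 1 AMI, 19 and 20 higher and 1 and 1 lower in day 7 AMI, and 1 lower between the times on TPM + 1. With 1 heart left out the last count ran from 1 to 2.

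*Sat1* in day 1 AMI also missed the threshold with RLE factors (adjusted p = 0.0518). *Odc1* in day 7 AMI passed in 5 alternatives and in 3 fits with 1 heart left out. *Nos2* and *Asl* in day 1 AMI, and *Ass1* and *Asl* between the times, passed with limma (adjusted p = 0.0168 to 0.0489). The fitted log2 FC of *Arg1* in day 1 AMI was 5.68 and 8.84 with limma, and 13.49 without sham replicate 3, which held its 1 sham count. The causes were not tested.

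The *Nos3* share computed from CPM differed by −8.14 (day 7 AMI minus sham) and −10.4 (day 7 minus day 1 AMI) percentage points (adjusted p = 0.0857 for both). With 1 heart left out, *Nos3* against the endothelial list ran from 0.61 to 0.82 in day 1 AMI, 0.12 to 0.28 in day 7 AMI and −0.63 to −0.42 between the times, missing the threshold in 8 of 12 fits for day 1 AMI and in 7 of 12 between the times, while day 7 AMI against sham passed without sham replicate 4 (0.28, adjusted p = 0.0429). The share ran from 0.279 to 4.71, −11.3 to −6.89 and −12.5 to −10.9, with the 2 calls lost without any 1 day 7 AMI heart (adjusted p = 0.0857), and day 1 AMI against sham passed without sham replicate 2 (4.71, adjusted p = 0.0286). With 3 hearts in a group the smallest exact p is 0.0286 before adjustment.

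Each heart came from its own mouse, and the deviations from the group means of hearts with the same number correlated at −0.244 to 0.229, so the numbers do not pair them. With the replicate block in the fit, the DEGs were again 1, 4 and 1 members higher and 0 lower, and 6 and 3, 11 and 5, and 8 and 2 pathway genes, and no member crossed the FDR threshold. Depth limits *Arg2*, *Nos1* and the sham level of *Arg1*.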

Other observations

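Pearson r of log2 CPM over the 12 hearts was computed between the members. *Slc7a2* and *Sat1*, both highest in day 7 AMI, had r = 0.954, and *Arg1* and *Odc1*, both highest in day 1 AMI, had r = 0.887, whereas *Odc1* and *Sat1* had r = 0.0969. *Nos3* and *Ass1* went with members of both kinds, *Nos3* with *Arg1* at 0.673 and with *Nos2* at 0.773, and *Ass1* with *Arg1* at 0.697 and with *Sat1* at 0.801. These values describe 12 hearts in 3 groups and share their libraries.

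The genes closest to each of the other members were *Kit*, *Rubcnl* and *Fancm* for *Nos2* (r of 0.952 to 0.956), *Apln*, *Hn1* and *Ajuba* for *Nos3* (0.940 to 0.944), *Zmat3*, *Sgpl1* and *Aldh1a3* for *Ass1* (0.964 to 0.983), *Adnp*, *Cenpm* and *Sh2b3* for *Asl* (0.945 to 0.947), *Endod1*, *Col4a6* and *Rad54b* for *Slc7a2* (0.980 to 0.983), *Fosl1*, *Zfp593* and *Tubb6* for *Odc1* (0.969 to 0.977), and *Gltp*, *B3gnt9* and *Vgll3* for *Sat1* (0.984 to 0.985). *Apln*, which encodes the vascular peptide apelin, averaged 15.5 CPM in sham, 43.4 CPM in day 1 AMI and 39.2 CPM in day 7 AMI. *Kit*, a receptor of mast cells and progenitors, averaged 5.67, 11.8 and 22.1 CPM.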
